A study of Mus musculus with 24 samples.

Results

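The duct epithelium (MDE) and the mesenchyme next to it (MDM) of the Müllerian ducts were compared within 3 female mouse embryos that lacked Wnt7a and were taken at E14.5 (E, embryonic day). The comparison rests on 6 of the 24 libraries of the series, those whose titles give the genotype as Wnt7a null, the stage as E14.5 and the region as MDE or MDM. The MDE and the MDM library with the same number in the title were paired as the regions of 1 embryo. The remaining 18 libraries come from Wnt7a-null embryos at E13.5 and from wild-type embryos at E14.5 and E13.5, with 3 embryos and both regions in each group. They entered the fit and are set beside the null E14.5 values only where a difference between groups was tested or described. The labels name no further allele, strain or treatment for any group. Each embryo gave 1 paraffin section, and all sections lay on 1 slide. Regions were picked by laminin staining and read by GeoMx profiling, which counts the DNA barcodes freed by light from probes bound to RNA, so each library is a bulk mixture of the cells in its region. In such a mixture, fewer cells of a type and less RNA per cell cannot be told apart.

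Each Müllerian duct is an epithelial tube in a sleeve of mesenchyme, and the pair forms the oviducts, uterus and upper vagina. Laminin is a protein of the basement membrane that separates the layers. Wnt7a is a secreted Wnt ligand made by the duct epithelium, and signals pass between epithelium and mesenchyme as the female tract is patterned. At E14.5 the ducts lie against each other at the midline and the membrane between them starts to break down. The comparison asks which transcripts separate the layers at this stage in embryos that lack the epithelial ligand. The 20175 probes of the panel are known here only by RTS identifiers, of which 0 matched the gene table used here, so probes are reported by identifier. The level of Wnt7a, which would check the genotype labels, and the markers that would check the labels epithelium and mesenchyme were not analysed here.

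Depth differed between the regions of every null E14.5 embryo. The MDE libraries held 305606, 2618342 and 619233 counts in embryos 1, 2 and 3, and the MDM libraries held 3707769, 12379529 and 6445840. MDE library 2 stood apart. It had 24.1 aligned reads per count, against 2.19 and 2.07 in MDE libraries 1 and 3, 2.07 to 2.38 in the 9 MDE libraries of the other groups, and 21.1 to 25.1 in the MDM libraries of these embryos. The median probe had 12, 112 and 26 counts in the MDE libraries, so counting error was largest in embryo 1 and smallest in embryo 2. Signal contrast, defined as the percentage of a library's counts that fell on the 1009 brightest of all probes (5%), was 19.5%, 16.0% and 17.1% in MDE and 18.4%, 13.9% and 15.9% in MDM of embryos 1 to 3. It was higher in MDE in each embryo, by 1.05, 2.09 and 1.24 percentage points. Exact 95% binomial intervals of these shares were at most 0.281 points wide, which covers counting error only. The share was lower than in wild-type E14.5 embryos, at 27.7% ± 1.21 in MDE and 25.7% ± 0.772 in MDM (SD, n = 3 each). Background, taken as the mean of the 5044 dimmest probes (25%), was 29.1 to 29.8 CPM in null E14.5 MDE and 29.95 to 30.4 in MDM, where CPM is the count of a probe relative to the TMM-scaled total of its library.

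Epithelium and mesenchyme of null E14.5 ducts differed in 475 of 20175 probes, 2.35% of the panel, by edgeR's quasi-likelihood test with the embryo as a block (adjusted p under 0.05, referred to as called). Of these, 363 (1.80% of the panel) were higher in MDE and 112 (0.555%) were higher in MDM. The differences were small: their median size was 0.53 on the log2 scale, the largest was 1.46, and 26 of 475 (0.129% of the panel) exceeded 2-fold, 18 higher in MDE and 8 higher in MDM. Upper-quartile scaling called 223 higher in MDE and 132 higher in MDM, and DESeq2, which also scales differently, 280 and 34, so the balance of directions depends on the scaling.

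Calls gathered in the bright probes. When the probes were divided into 5 equal classes by mean level over all libraries, the brightest class, from 53.2 to 8889 CPM, held 317 of the probes higher in MDE and 73 of those higher in MDM, or 82.1% of all calls. In that class 9.67% of probes were called, against 0.149% to 1.21% in the other 4 classes. Its median difference was 0.08, and the median of the dimmest class was −0.03. Of the called probes, 351 of 363 and 95 of 112 stood at 1.5 times background or more in the region where they were higher, against 7552 of all 20175 probes in their own higher region.

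**Figure D1:**
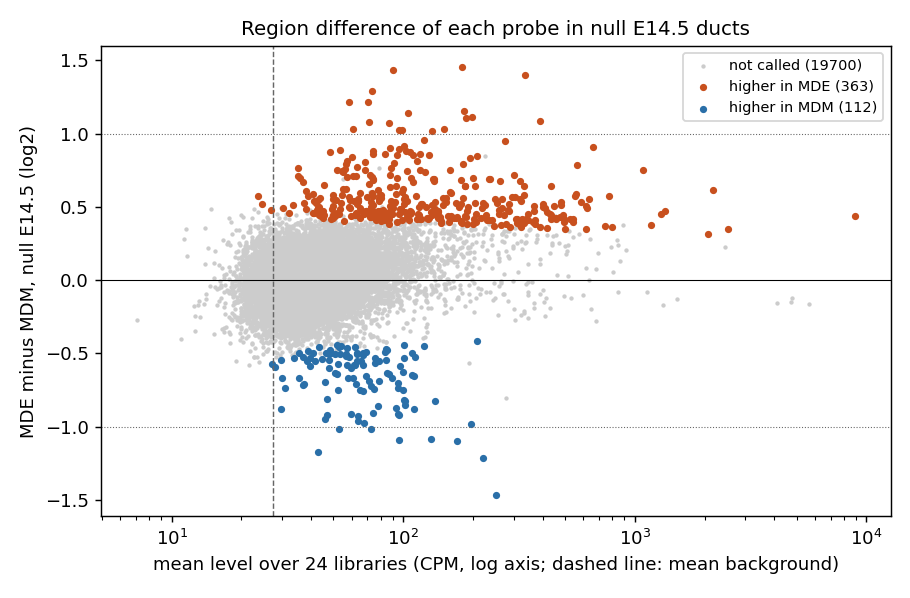
Region difference in null E14.5 ducts (MDE minus MDM, log2) against the mean level of each probe over the 24 libraries (CPM, log axis). Orange and blue points are the 363 and 112 probes called higher in MDE and in MDM, dotted lines mark 2-fold, and only 26 called probes lie beyond them.

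The probes with the lowest p among those higher in the epithelium were RTS0066019 and RTS0068891. RTS0066019 measured 212, 301 and 185 CPM in MDE and 101, 91.4 and 84.6 CPM in MDM of embryos 1, 2 and 3. The lowest MDE value lay above the highest MDM value, and the widest gap was in embryo 2. The fitted difference was 1.40 (log2; SE 0.110, adjusted p = 5.21e-27), and 1.10 without embryo 2 (adjusted p = 9.08e-09). The embryo differences were 1.06, 1.71 and 1.12 (SD 0.359), and limma with equal weight per embryo gave 1.30 (adjusted p = 3.92e-05). Its region difference was close in size in the other groups, at 1.46 (SE 0.114) in wild-type E14.5, 1.24 (SE 0.123) in null E13.5 and 1.29 (SE 0.136) in wild-type E13.5. Its levels were lower in both layers of null E14.5 embryos, at 233 ± 60.9 CPM in MDE and 92.4 ± 8.34 in MDM, than in wild-type E14.5 embryos, at 680 ± 205 and 241 ± 32.2 (SD, n = 3 each). The ranges of the genotypes did not overlap in either layer, and the test of the genotype difference in region contrast gave −0.06 (SE 0.155, adjusted p = 0.993). The difference in level itself was not tested. Signal contrast was also lower in null E14.5 than in wild-type E14.5 libraries, as given above.

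RTS0068891 measured 193, 139 and 218 CPM in MDE and 95.1, 47.3 and 71.7 CPM in MDM of embryos 1, 2 and 3. The layers did not overlap, although embryo 2 was the lowest in both. The difference was 1.45 (SE 0.116, adjusted p = 3.23e-24), and 1.37 without embryo 2 (adjusted p = 1.12e-11). Wild-type E14.5 levels were higher in both layers without overlap, at 449 ± 68.6 CPM in MDE and 139 ± 15 in MDM (SD, n = 3 each). This difference in level was not tested.

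RTS0064427 and RTS0064438 led the probes higher in the mesenchyme. RTS0064427 measured 79.2, 128 and 81.7 CPM in MDE and 202, 383 and 197 CPM in MDM. Embryo 2 was highest in both layers, and every MDM value exceeded every MDE value. The difference was −1.46 (log2, MDE minus MDM; SE 0.120, adjusted p = 3.22e-25), and −1.30 without embryo 2 (adjusted p = 5.73e-09). The other groups gave −2.22 (SE 0.154) in wild-type E14.5, −1.63 (SE 0.164) in null E13.5 and −1.60 (SE 0.179) in wild-type E13.5, and the difference between genotypes at E14.5 did not pass (0.75, SE 0.212, adjusted p = 0.132).

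RTS0064438 measured 66.5, 76.3 and 59.0 CPM in MDE and 103, 195 and 95.6 CPM in MDM. Here the call did not pass without embryo 2. Embryo 2 differed by −1.34 and embryos 1 and 3 by −0.62 and −0.69, the fit gave −1.10 (SE 0.134, adjusted p = 3.13e-12), and without embryo 2 it gave −0.67 (adjusted p = 0.139). This call also ended without the embryo block (−0.94, adjusted p = 0.0959), with signal contrast as a term of the fit (−0.44, adjusted p = 0.963) and after background subtraction in limma (−1.49, adjusted p = 0.243). After that subtraction the calls of RTS0066019 and RTS0068891 (adjusted p = 0.1125 each) and RTS0064427 (adjusted p = 0.1083) ended as well. The RTS0064438 call held in 11 of 15 alternative settings. They include the fit without a low-count filter, which kept the same 20175 probes and so could not differ. Among the 11 were also limma with equal weight per embryo (−0.88, adjusted p = 0.0367) and edgeR with the deep MDE library thinned (−1.17, adjusted p = 2.16e-07). The other groups gave −2.14 (SE 0.198) in wild-type E14.5, −0.78 (SE 0.157) in null E13.5 and −1.35 (SE 0.190) in wild-type E13.5. The difference between genotypes at E14.5 passed by edgeR (1.04, SE 0.263, adjusted p = 0.0413), with the null difference nearer 0.

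**Figure D2:**
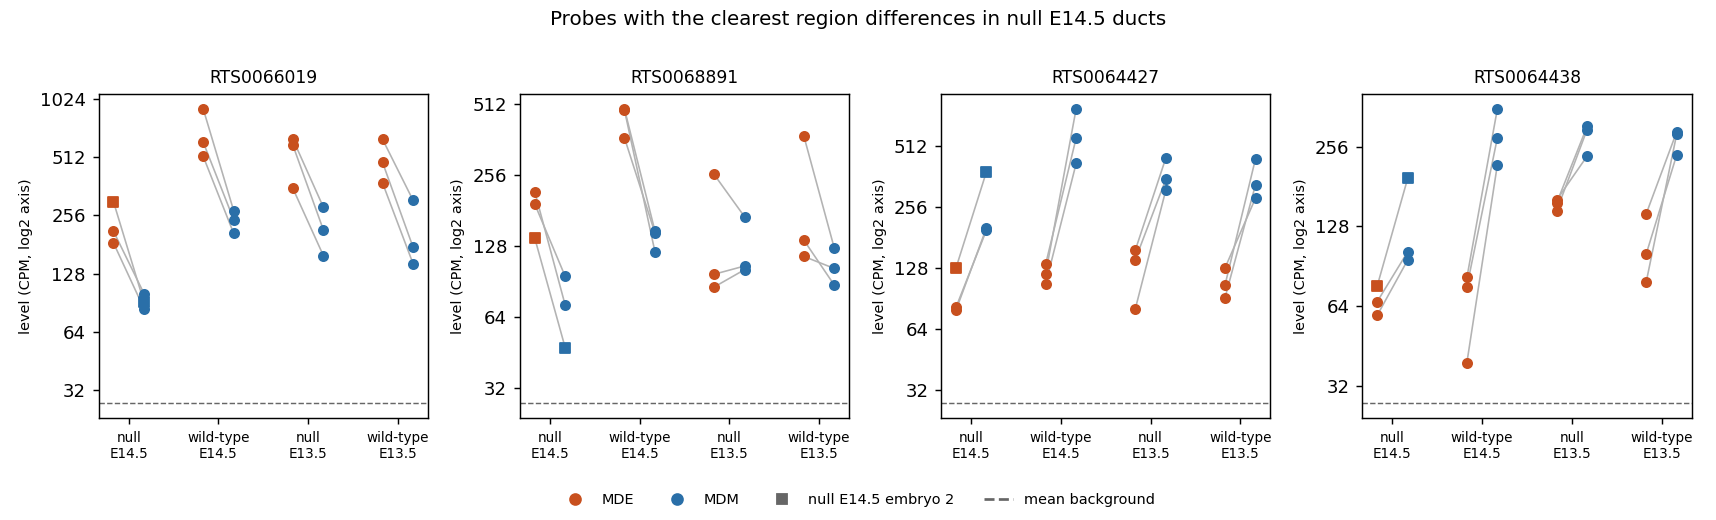
Levels of the 4 probes in every library (CPM, log2 axis) by group, with lines joining MDE (orange) and MDM (blue) of an embryo; squares are null E14.5 embryo 2 and the dashed line is the mean background. The null E14.5 layers do not overlap for any of the 4 probes, and for RTS0066019 and RTS0068891 both layers lie below their wild-type E14.5 values.

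The number of calls depended on embryo 2. Without it 88 probes passed (0.436% of the panel), 74 higher in MDE (0.367%) and 14 higher in MDM (0.0694%), against 405 without embryo 1 and 353 without embryo 3. Of these, 69 of 74 and 13 of 14 were also called with all embryos. The differences themselves moved little: the 363 probes called higher in MDE had a median of 0.50 with all embryos and 0.47 without embryo 2, and the 112 called higher in MDM had −0.60 and −0.54. Of the 363 and the 112 probes, 360 and 111 kept their sign. With the deep MDE library thinned to the lowest MDE total of the group, 204 probes passed, and with every embryo given equal weight in limma 39 passed. With signal contrast added as a term of the fit 7 passed, and without the embryo block 100. After background subtraction limma called 0 of 8352 probes, with 416 at an unadjusted p under 0.05, against 1967 of 20175 by edgeR.

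Each embryo was also left out in turn, and the probes called in its absence were read in that embryo, which had no part in choosing them. Of 74 probes called higher in MDE without embryo 2, 73 were higher in MDE in embryo 2, with a median of 0.64 against 0.84 in the fit that chose them, and 14 of 14 called higher in MDM were higher in MDM there (−0.78 against −0.99). Over all probes the median difference in embryo 2 was 0.00 and 49.98% were higher in MDE. The called probes were mostly bright, and the 1009 brightest probes as a whole leaned to MDE. Their median difference was 0.22 in embryo 2, 0.13 in embryo 1 and 0.16 in embryo 3. The value over all probes is thus a low comparator for the probes called higher in MDE. At the probes chosen in embryos 1 and 3, the embryo whose MDE library stood apart in depth thus had the same direction with 1 exception. Embryo 1 shared the direction at 280 of 312 and 81 of 93 probes, with medians of 0.38 and −0.59, and embryo 3 at 239 of 257 and 87 of 96, with medians of 0.43 and −0.45. Across the brightest 1009 probes, Pearson's r between the region differences of 2 null E14.5 embryos was 0.525 to 0.631 over the 3 pairs, against 0.694 to 0.761 within wild-type E14.5. Between null and wild-type E14.5 embryos r was 0.523 to 0.686 over 9 pairs, of which the 3 with embryo 2 were the highest, at 0.660 to 0.686. These correlations are across probes, which are not independent replicates and share the libraries' depth.

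**Figure D3:**
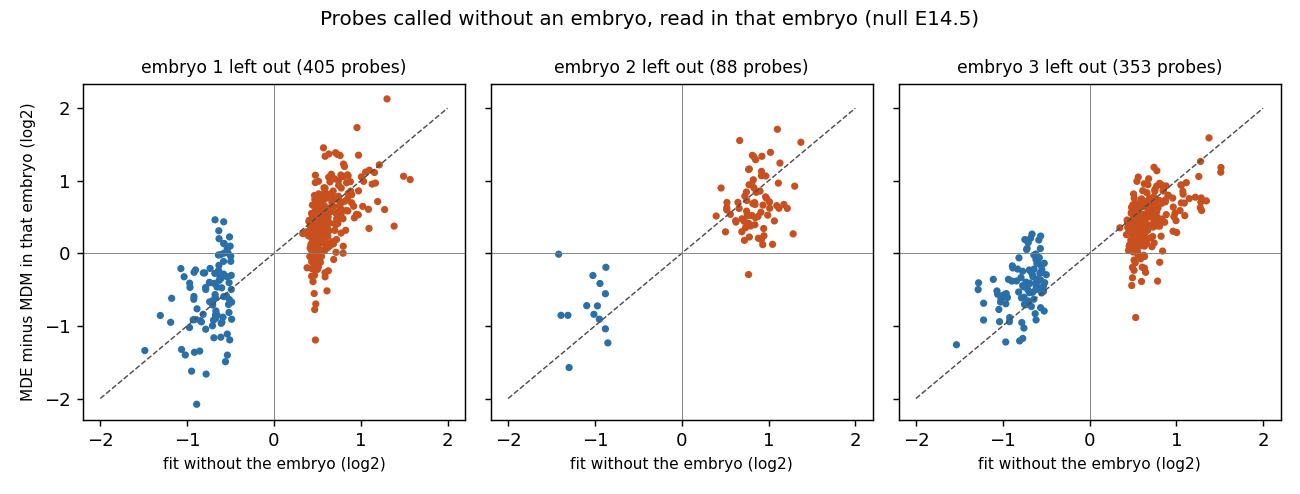
Probes called in null E14.5 with 1 embryo left out, plotted as the fitted difference without the embryo (horizontal, log2) against the difference in that embryo (vertical, log2); orange points were called higher in MDE, blue higher in MDM, and the dashed line marks equal values. With embryo 2 left out fewer probes were called, and 73 of 74 and 14 of 14 have the same direction in embryo 2.

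The separation of the layers was set against that of wild-type embryos of the same age, which share no library with the null embryos. Wild-type E14.5 ducts also had 475 calls (2.35% of the panel), 313 higher in MDE (1.55%) and 162 higher in MDM (0.803%), but 250 of them (1.24% of the panel) exceeded 2-fold, against 26 in null. At E13.5, 95 of 237 calls in null (0.471% of the panel against 1.17%) and 105 of 199 in wild-type (0.520% against 0.986%) exceeded 2-fold. Of the probes called higher in MDE, 180 were shared, 49.6% of the null list and 57.5% of the wild-type list. Of those called higher in MDM, 67 were shared, 59.8% of the null and 41.4% of the wild-type list. None was called in opposite directions (0 in each list). Over the brightest 1009 probes the SD of the region difference was 0.317 to 0.401 in the null E14.5 embryos and 0.493 to 0.575 in the wild-type E14.5 embryos, with no overlap. The wild-type E14.5 MDE libraries were shallower than the null ones, at 175461, 298133 and 243190 counts. The part of depth in this spread and in the number of calls over 2-fold was not tested.

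Probes that separate the layers in wild-type kept their direction in null ducts. Of the 313 wild-type probes higher in MDE, 302 had the same sign in null E14.5 and 180 were called, with a median of 0.45 in null. The medians were 0.43, 0.46 and 0.42 in embryos 1, 2 and 3. Of the 162 wild-type probes higher in MDM, 152 had the same sign and 67 were called, with a median of −0.39 and medians of −0.42, −0.36 and −0.34 in the 3 embryos. The median over all probes was 0.00, with 51.2% above 0. In wild-type itself these lists had medians of 0.90 and −1.25, but those values chose the lists and are no independent measure.

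Lists chosen at E13.5 avoid that selection, since they rest on neither E14.5 group. The 141 probes called higher in MDE in wild-type E13.5 (0.699% of the panel) had a median of 0.48 in null E14.5 and 0.61 in wild-type E14.5. Embryo medians were 0.44, 0.52 and 0.45 in null and 0.84, 0.56 and 0.61 in wild-type, so the genotypes lay close together without overlapping. The 58 probes called higher in MDM (0.287%) had −0.31 in null and −0.69 in wild-type. Their embryo medians were −0.35, −0.29 and −0.25 in null and −0.82, −0.58 and −0.62 in wild-type, a wider gap between the genotypes. Without embryo 2 the null medians were 0.48 and −0.30. Lists from null E13.5 gave 0.43 in null against 0.52 in wild-type E14.5 for 168 probes higher in MDE (0.833%), where the embryos of the genotypes overlapped, and −0.33 against −0.69 for 69 probes higher in MDM (0.342%). Signal contrast was lower in the null E14.5 than in the wild-type E14.5 libraries, as given above. With it as a term of the fit the wild-type E14.5 lists had null medians of 0.68 and −0.81. The embryo blocks of that fit take up differences in contrast between embryos. It therefore cannot adjust for the lower contrast of the null libraries. After background subtraction the wild-type E13.5 lists had medians of 0.68 in null and 0.51 in wild-type for 136 probes higher in MDE, and −0.81 and −1.55 for 54 higher in MDM. That fit also centred each library on its median, and subtraction and centring were not tested apart. In it the order of the genotypes turned for the epithelial list and held for the mesenchymal list.

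Whether the separation of a probe's layers differed between genotypes at E14.5 was tested directly, as the region difference in null minus that in wild-type. The test called 46 of 20175 probes (0.228%), 37 of them by more than 2-fold (0.183%). The value was negative for 31 (0.154%) and positive for 15 (0.0743%). In all 46 the null difference lay nearer 0, and it had the wild-type sign in 27 of 31 and 14 of 15. The 31 had a median region difference of 0.57 in null and 1.69 in wild-type, and the 15 had −0.49 and −1.73. These values also chose the 46 probes, so their sizes are no independent measure. Signal contrast was lower in null E14.5 than in wild-type E14.5 libraries, as given above, and its part here was not tested. The number of calls was 23 without embryo 2, 30 without embryo 3 and 43 without embryo 1, and DESeq2 called 15. Limma with equal weight per embryo called 0 (621 at an unadjusted p under 0.05, 1262 by edgeR), and background-subtracted limma called 0 of 8352 (368 unadjusted). Upper-quartile scaling split the calls into 21 higher and 24 lower.

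**Figure D4:**
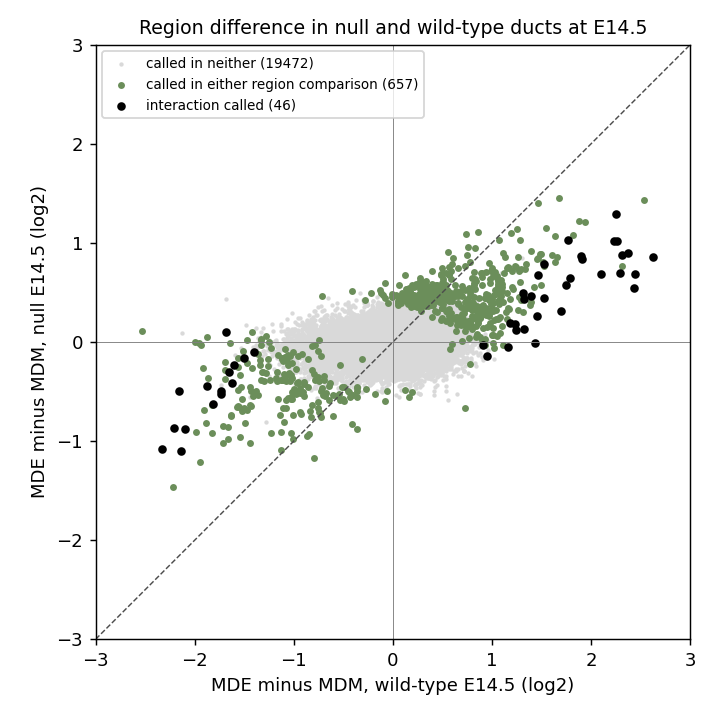
Region difference (MDE minus MDM, log2) of each probe in wild-type E14.5 (horizontal) and null E14.5 ducts (vertical), with probes called in either region comparison in green and all others in grey. The 46 probes whose difference itself differed between genotypes (black) all have a null value nearer 0, and 27 of 31 and 14 of 15 have the same sign in both genotypes. The plotted values also chose these probes. The dashed line marks equal values.

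RTS0080102 and RTS0063083 had the lowest p among probes whose epithelial excess was smaller in null. RTS0080102 measured 69.7, 85.7 and 83.3 CPM in null MDE and 52.4, 58.5 and 55.9 CPM in null MDM. In wild-type E14.5 it measured 272, 178 and 214 CPM in MDE and 42.1, 36.9 and 40.9 CPM in MDM. For this probe null lay below wild-type in the epithelium and above it in the mesenchyme, without overlap, but these differences in level were not tested. Its region difference was 0.54 (SE 0.115) in null and 2.43 (SE 0.175) in wild-type, a difference of −1.89 (SE 0.198, adjusted p = 3.95e-15) and −1.91 without embryo 2 (adjusted p = 3.52e-10). Wild-type MDM stood at 1.47 times background, so the wild-type contrast is limited by background. Null MDM stood at 1.84 times, and background itself was 29.95 to 30.4 CPM in null and 26.9 to 27.5 CPM in wild-type E14.5 MDM. At E13.5 this probe had 0.69 (SE 0.247) in null and 1.44 (SE 0.221) in wild-type.

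RTS0063083 measured 101, 71.0 and 105 CPM in null MDE and 42.7, 45.9 and 45.4 CPM in null MDM, against 145, 278 and 267 and 36.1, 41.1 and 38.9 CPM in wild-type E14.5. The mesenchyme was near background in both genotypes, at 1.48 and 1.43 times, and the MDE values of the genotypes did not overlap. Its region difference was 0.86 (SE 0.117) in null and 2.63 (SE 0.169) in wild-type, and the difference between them was −1.76 (SE 0.192, adjusted p = 2.37e-14), or −1.41 without embryo 2 (adjusted p = 6.45e-06). In null E13.5 the layers of this probe stood together, at 37.4 ± 3.66 CPM in MDE and 38.8 ± 1.06 in MDM (SD, n = 3 each), with MDE at 1.44 times background. The wild-type E13.5 layers were not called apart either, at 62.7 ± 17.6 CPM in MDE and 48.3 ± 5.23 in MDM (0.30, SE 0.291, adjusted p = 0.858).

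Among probes whose mesenchymal excess was smaller in null, RTS0068500 had overlapping layers. It measured 44.4, 45.3 and 42.4 CPM in MDE and 42.9, 40.0 and 45.3 CPM in MDM of null embryos, with ranges that overlap and levels of 1.49 and 1.41 times background. In wild-type E14.5 it measured 44.2, 53.4 and 80.2 CPM in MDE and 125, 249 and 179 CPM in MDM, where the layers did not overlap. Its region difference was 0.10 (SE 0.140, adjusted p = 0.927) in null and −1.69 (SE 0.204) in wild-type, and the difference between them was 1.79 (SE 0.258, adjusted p = 4.36e-08), or 1.64 without embryo 2 (adjusted p = 0.00505). Only the wild-type E14.5 layers reached 1.5 times background, so the size of a null difference could not be measured and the tested value rests on the wild-type contrast. At E13.5 the layers stood close in both genotypes, at 37.1 ± 7.02 and 38.8 ± 3.36 CPM in null and 28.3 ± 15.3 and 34.5 ± 5.40 CPM in wild-type MDE and MDM (SD, n = 3 each), all under 1.5 times background.

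RTS0070870 measured 34.9, 41.1 and 51.5 CPM in null MDE and 56.2, 63.8 and 52.3 CPM in null MDM, and embryo 3 showed almost no gap between its layers (−0.02). Wild-type E14.5 embryos had 44.2, 28.5 and 31.2 CPM in MDE and 196, 143 and 121 CPM in MDM, and both MDE means were under 1.5 times background. The region difference was −0.49 (SE 0.141) in null and −2.16 (SE 0.252) in wild-type, with a difference of 1.66 between them (SE 0.314, adjusted p = 0.000290), or 1.93 without embryo 2 (adjusted p = 0.00120). The call ended in the fit without the embryo block (adjusted p = 0.0634) and in limma-voom (adjusted p = 0.312). In limma with equal weight per embryo the genotype calls of RTS0080102, RTS0063083, RTS0068500 and RTS0070870 all ended (adjusted p from 0.0586 to 0.370), and so they did after background subtraction.

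Between stages, the region difference of null embryos at E14.5 was set against that at E13.5. The test called 16 of 20175 probes (0.0793%), 11 of them by more than 2-fold (0.0545%), with 9 higher (0.0446%) and 7 lower (0.0347%) at E14.5 and 1118 at an unadjusted p under 0.05. Without embryo 2 and without embryo 3 there were 9 each, and DESeq2 called 4, all higher. Limma with equal weight per embryo called 0, with 614 at an unadjusted p under 0.05. With MDM thinned to the depth of the embryo's MDE library 1 probe passed, and none of the 4 named next did. Upper-quartile scaling moved the median over all probes from 0.01 to 0.12 and split the calls into 12 higher and 3 lower.

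The region difference was higher at E14.5 than at E13.5 for RTS0068891 and RTS0073768. RTS0068891, given above for its epithelial excess at E14.5, measured 97.1, 258 and 85.7 CPM in null E13.5 MDE and 105, 171 and 102 CPM in MDM. The layers overlapped, with a difference of 0.14 (SE 0.187, adjusted p = 0.918). The change in region difference was 1.31 (SE 0.209, adjusted p = 1.49e-05), or 1.23 without embryo 2 (adjusted p = 0.00201). The call ended in DESeq2 (adjusted p = 0.308), in limma-voom (adjusted p = 0.524) and with thinned MDM (adjusted p = 0.116). Wild-type embryos had 0.89 (SE 0.193) at E13.5 and 1.67 (SE 0.133) at E14.5, so the difference was also larger at E14.5 there.

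RTS0073768 measured 149, 235 and 127 CPM in MDE and 223, 265 and 182 CPM in MDM of null E13.5 embryos, each embryo lower in MDE. At E14.5 it measured 114, 117 and 106 CPM in null MDE and 56.5, 73.3 and 57.2 CPM in null MDM, each embryo higher in MDE. The region difference was −0.41 (SE 0.162, adjusted p = 0.314) at E13.5 and 0.79 (SE 0.126, adjusted p = 2.91e-07) at E14.5, and the change was 1.20 (SE 0.202, adjusted p = 4.38e-05), or 1.34 without embryo 2 (adjusted p = 0.00114) and 1.07 with thinned MDM (adjusted p = 0.0762). Wild-type embryos had −0.45 (SE 0.179) at E13.5 and 1.52 (SE 0.137) at E14.5, and the difference between genotypes at E14.5 passed by edgeR (−0.73, SE 0.180, adjusted p = 0.0284).

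The region difference was lower at E14.5 than at E13.5 for RTS0073516 and RTS0081477. RTS0073516 measured 149, 241 and 143 CPM in null E13.5 MDE and 31.6, 32.8 and 38.1 CPM in MDM, and at E14.5 it measured 105, 58.3 and 63.6 CPM in MDE and 37.6, 40.2 and 39.8 CPM in MDM. MDE values of the stages did not overlap, and the mesenchyme was under 1.5 times background at both. The region difference was 2.29 (SE 0.193) at E13.5 and 0.70 (SE 0.125) at E14.5, a change of −1.59 (SE 0.216, adjusted p = 2.38e-08), or −1.30 without embryo 2 (adjusted p = 0.00309). Wild-type embryos had 2.22 (SE 0.220) at E13.5 and 2.29 (SE 0.196) at E14.5, and the difference between genotypes at E14.5 passed as well (−1.59, SE 0.218, adjusted p = 7.36e-09). The stage call ended in DESeq2 (adjusted p = 0.119) and with thinned MDM (adjusted p = 0.401).

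RTS0081477 measured 232, 35.2 and 117 CPM in MDE and 34.0, 26.8 and 33.6 CPM in MDM of null E13.5 embryos, and 47.5, 45.3 and 63.6 CPM in MDE and 28.1, 41.7 and 39.2 CPM in MDM at E14.5. The spread at E13.5 was wide, with embryo 2 low in both layers, and the mesenchyme stood at 1.15 times background at E13.5 and 1.20 at E14.5. The change was −1.59 (SE 0.259, adjusted p = 4.51e-05), and the call ended in 9 of 14 alternative settings. Among these were the fit without embryo 2 of E14.5 (−1.19, adjusted p = 0.0888) and, with all embryos kept, thinned MDM (adjusted p = 0.0762), signal contrast as a term (adjusted p = 0.0673), limma-voom (adjusted p = 0.482) and DESeq2 (adjusted p = 0.9999). The difference between genotypes at E14.5 passed by edgeR (−1.38, SE 0.284, adjusted p = 0.00354). Without the embryo block the stage calls of RTS0081477 (adjusted p = 0.515), RTS0073768 (adjusted p = 0.515) and RTS0068891 (adjusted p = 0.9998) ended.

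**Figure D5:**
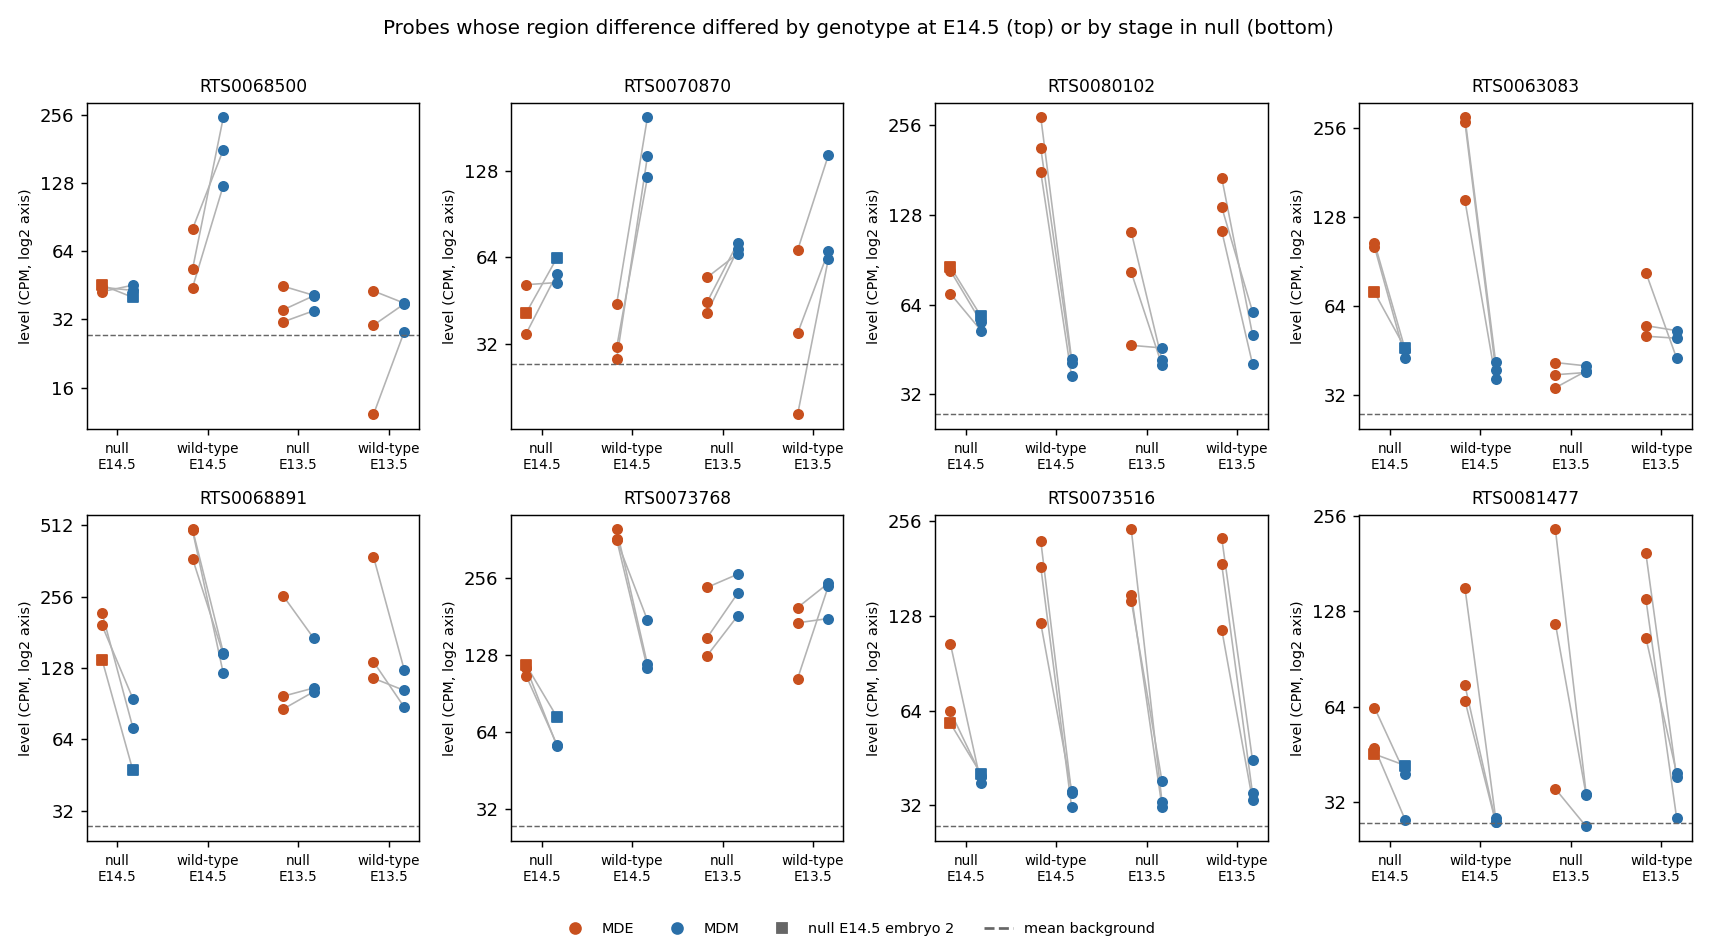
Levels of the 8 probes whose region difference differed between genotypes at E14.5 (top row) or between stages in null embryos (bottom row), in every library (CPM, log2 axis), with lines joining MDE (orange) and MDM (blue) of an embryo, squares for null E14.5 embryo 2 and a dashed line at the mean background. For RTS0080102 and RTS0063083 null E14.5 MDE lies below wild-type E14.5 MDE, and for RTS0068500 the null layers overlap.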

How the data were processed

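Per the file headers, version 2.3.5 of the GeoMx NGS Pipeline produced the deposited counts, whole numbers for each probe. Aligned reads outnumber counts in every library; how they were collapsed is not given in the sources used here. The submitters' processing notes list GRCm38.p6. Probes absent from a file were set to 0. No pair of null E14.5 libraries of a region was identical.

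Counts of all 24 libraries were fitted with edgeR 4.0.16 (R 4.3.3): TMM, filterByExpr (minimum count 10, minimum total 15, which kept all 20175 probes), a robust quasi-likelihood fit, the embryo as a block, a region term per genotype and stage, and Benjamini-Hochberg adjustment over all probes. The SE is the size of the log2 difference over the square root of F. It rests on a fit that shares information on spread across probes and weights deeper libraries more, and is not the spread among the 3 embryos. Differences in single embryos are log2 CPM with a prior count of 2. The pairing comes from the titles; deviations of an embryo's regions from their group means correlated at 0.064 to 0.75 over the 1009 brightest probes, above 0.1 in 11 of 12 embryos. Named probes are, per tested comparison, the 2 with the lowest p in each direction at 1.5 times background or more, with 1 sign in all 3 embryos for the region difference. The members, lists and alternatives were chosen with earlier results of these data known. Alternatives used DESeq2 1.42.0 and limma 3.58.1. The background-subtracted fit was run on the 8352 probes that reached 1.5 times background, and values were floored at 0.25 of it. Each library was then centred on the median log2 value of these probes. The edgeR, DESeq2, limma-voom, equal-weight and background-subtracted fits were run on simulated counts, which held no embryo effect. The other alternatives and the readings of lists were not.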

Additional observations from a re-analysis of the deposited data

Results flagged for a closer look

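The region difference itself differed between groups, by the interaction test of the edgeR fit, in 46 probes between genotypes at E14.5 and in 16 probes between stages in null embryos. Named among the first were RTS0068500 (1.79), RTS0070870 (1.66), RTS0080102 (−1.89) and RTS0063083 (−1.76), as log2 differences of null from wild-type. Named among the second were RTS0068891 (1.31), RTS0073768 (1.20), RTS0073516 (−1.59) and RTS0081477 (−1.59), as log2 differences of E14.5 from E13.5.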

How the results depend on the processing

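Of 475 calls of the region difference, leaving out 1 embryo left 88 to 405, DESeq2 314, the fit with no replicate block 100, limma-voom with the embryo as a random block 61, MDM thinned to MDE depth 287, the contrast covariate 7, background-subtracted limma 0 (416 unadjusted), equal weight per embryo 39 and thinning of the deep library 204; the last pair was chosen after seeing the data. For the genotype difference (46) the same order gave 23 to 43, 15, 17, 19, 12, 32 with the covariate, 0 (368 unadjusted), 0 (621) and 24, and for the stage difference (16) 9 to 16, 4, 2, 5, 1, 15, 0 (386 unadjusted), 0 (614) and 10. Background subtraction was added for the genotype and stage tests and for the lists after seeing the data. A minimum count of 20 gave 472, 46 and 16 calls. The cause of these changes was not tested. The null median of wild-type probes higher in MDE (0.45) was 0.42 to 0.45 without 1 embryo, 0.49 with upper-quartile scaling, 0.52 with DESeq2, 0.52 with thinned MDM, 0.68 with the covariate and 0.64 after background subtraction. For those higher in MDM (−0.39) it was −0.41 to −0.36 without 1 embryo, then −0.32, −0.44, −0.57, −0.81 and −1.12. With DESeq2 the direction in the left-out embryo was shared by 176 of 180 probes called higher in MDE for embryo 3 (97.8%, against 93.0% of 257 by edgeR). Among those called higher in MDM it was shared by 14 of 14 for embryo 1 and 18 of 18 for embryo 3. These lists were shorter than the 93 and 96 probes by edgeR. For the 12 named results, 132 of 172 alternative values kept direction and call, 40 kept the direction only and 0 reversed. These settings include the fit without a low-count filter, which kept the same 20175 probes and so could not change a value. A minimum count of 20 kept 20168 probes, so it could change little.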
